A study of Mus musculus with 4 samples.

Results

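The genes described here encode the proteins that store, release and retrieve calcium in the sarcoplasmic reticulum of muscle, and those that refill it from outside the cell. The list held 10 genes: Atp2a2, Atp2b4, Pln, Sln, Ryr2, Itpr1, Casq1, Casq2, Stim1 and Orai1. They were found by matching these symbols to the platform's annotation of the probes, which gave 11 probes for 8 of the 10 genes, out of 15366 named genes in all. Atp2b4, a calcium pump of the plasma membrane, and Itpr1, an inositol trisphosphate receptor, were not analysed here, since no probe is named for them in the annotation used. Where a gene had more than 1 probe, the brightest one over the 4 arrays stands for the gene, and the others are given beside it.

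Total RNA of bladders from male mice on a normal diet was hybridised to single-colour Illumina arrays. The titles place 2 arrays in a sham-operated group and 2 in a group with partial bladder outlet obstruction of 14 days, a narrowing of the bladder outlet that makes the organ empty against a raised resistance and its muscle enlarge. The treatment field of the labels names obstruction for all 4 arrays, so the sham group rests on the titles alone. Strain, age and the time between the sham operation and sampling were not given in the sources used here. Nothing states that each array carried the RNA of 1 mouse, so the p-values reflect only how these samples scatter, which may be technical scatter. The series asks how genes are regulated in hypertrophy of bladder smooth muscle.

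In smooth muscle, calcium released from the reticulum and calcium entering through the plasma membrane together start contraction, and relaxation needs the reticulum's pump, SERCA, to take calcium back up. Phospholamban and sarcolipin are small membrane proteins that bind SERCA and slow it, calsequestrins hold calcium inside the store, and ryanodine receptors and inositol trisphosphate receptors let it out. STIM proteins sense an empty store and open ORAI channels in the plasma membrane. In bladder muscle, local release through ryanodine receptors opens calcium-activated potassium channels, which limits contraction.

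Of the 8 measured genes, 4 were lower in both obstructed arrays than in either sham array: the pump gene Atp2a2, its inhibitor Pln, the release channel Ryr2 and the store protein Casq2. They stood 2.12- to 2.68-fold below sham on average. The genes of store-operated entry, Stim1 and Orai1, overlapped between the groups, as did Casq1 and Sln, 2 genes best known from skeletal muscle. By limma with Benjamini-Hochberg adjustment over all 15366 genes, 0 of the 8 passed an adjusted p of 0.05, a threshold that 0.0521% of all genes passed. At an unadjusted p below 0.05 in the same fit, 4 of the 8 were lower, where 5.09% of all genes were, and 0 were higher, where 3.05% of all genes were. The median log2 difference, obstructed minus sham, was -0.72 for the 8 genes and -0.016 for all genes. Groups did not overlap, with obstructed lower, for 21.6% of all genes. The list was chosen with earlier results of these data known, so these counts describe it and do not test it.

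The regulatory sequence just upstream of 3 of these 4 lower genes is shown so that their starts can be compared. RefSeq promoter entries, which run from 250 bases before the annotated start to 50 bases after it, matched 6 of the 8 measured genes, all but Atp2a2 and Sln. Capitals mark GATAA, the core of sites bound by GATA factors, the E-box CANNTG, and the MEF2 box, each searched on both strands. No marked motif overlaps another.
Pln (GRCm38.p6, chr10:53337436-53337735, plus strand): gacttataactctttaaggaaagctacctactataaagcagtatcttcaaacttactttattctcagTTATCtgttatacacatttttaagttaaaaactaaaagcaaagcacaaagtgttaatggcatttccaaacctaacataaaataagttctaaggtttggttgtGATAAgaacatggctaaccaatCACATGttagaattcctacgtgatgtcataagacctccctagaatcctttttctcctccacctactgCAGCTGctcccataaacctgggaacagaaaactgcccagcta
Casq2 (GRCm38.p6, chr3:102086165-102086464, plus strand): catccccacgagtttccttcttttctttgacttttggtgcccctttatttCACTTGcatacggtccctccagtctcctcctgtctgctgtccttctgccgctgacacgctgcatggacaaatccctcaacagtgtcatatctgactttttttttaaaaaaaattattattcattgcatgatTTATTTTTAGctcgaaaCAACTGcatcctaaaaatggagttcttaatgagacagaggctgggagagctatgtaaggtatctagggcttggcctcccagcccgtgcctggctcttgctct
Ryr2 (GRCm38.p6, chr13:12106896-12107195, minus strand): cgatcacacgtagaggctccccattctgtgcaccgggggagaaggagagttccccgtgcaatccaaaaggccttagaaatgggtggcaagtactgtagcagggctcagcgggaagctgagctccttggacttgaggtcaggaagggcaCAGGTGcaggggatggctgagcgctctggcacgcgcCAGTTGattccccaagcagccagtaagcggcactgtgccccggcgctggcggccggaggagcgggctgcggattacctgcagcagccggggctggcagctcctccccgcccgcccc

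The Pln window held GATAA at 2 places, from -183 to -179 on the opposite strand and from -81 to -77, counted from the start, and E-boxes at -59 and 9. Casq2 had a MEF2 box from -69 to -60 with an E-box at -52 and another at -200, and Ryr2 had E-boxes at -102 and -66. Over the 32851 promoter entries, 25.4% held GATAA, 72.3% an E-box and 3.19% a MEF2 box. The CArG box, the site of serum response factor, was in 1.63% of all entries and the NF-kB site in 8.46%, and both were in 0 of the 6 windows. These 3 windows differed in composition, with 1 CpG in Pln, 6 in Casq2 and 18 in Ryr2, where the median entry had 7. The windows of Stim1 and Orai1 were richer, with 38 and 36 CpG, and held 8 and 3 copies of the GC box GGGCGG, against 2 overlapping copies in Ryr2. TATAAA, searched the same way and present in 13.6% of entries, was found in Pln alone among the 6. Casq1 had 1 GATAA, 2 E-boxes and 4 CpG. Such matches are letters in a window and were not tested for binding.

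Atp2a2 encodes SERCA2, the calcium uptake pump of heart, slow skeletal and smooth muscle, and both its probes were bright. Probe 3990279, matched to NM_009722.1 (GRCm38.p6, chromosome 5, 122453513 to 122502225), gave log2 intensities of 12.68 and 12.98 for sham and of 11.90 and 11.59 for obstructed bladders. Coordinates printed with a probe are those of its gene in RefSeq. Both obstructed arrays lay below both sham arrays, by at least 0.79. The group means were 12.83 ± 0.21 and 11.74 ± 0.21 (log2 intensity, SD, n = 2). In log2 terms they differed by -1.09 (SE 0.19, 95% interval -1.56 to -0.61), which is 2.12-fold lower (1.53- to 2.95-fold), at a limma adjusted p of 0.212. A dimmer probe, 1090075, read 11.51 and 11.72 in sham and 10.55 and 10.33 in obstructed arrays, a log2 difference of -1.17, so that both probes placed the arrays alike.

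Pln encodes phospholamban, which holds SERCA2 back until it is phosphorylated. Its probe 3940132 (chromosome 10, 53337686 to 53345999) read 7.65 and 7.88 in sham and 6.60 and 6.49 in obstructed arrays, the widest separation among the 8 genes, 1.06 between the nearest arrays of the groups. The means were 7.77 ± 0.16 and 6.54 ± 0.07 (log2 intensity, SD, n = 2). Pln thus differed by -1.22 on the log2 scale (SE 0.17, 95% interval -1.64 to -0.80), 2.34-fold lower (1.75- to 3.12-fold), with a limma adjusted p of 0.138. By its p, Pln ranked 40 among the 15366 genes. Relative to Atp2a2 within each array, Pln stood at -5.03 and -5.10 in sham and at -5.30 and -5.10 in obstructed arrays (log2 ratio of 2 probes, whose brightness cannot be compared as RNA amounts). The shift of this ratio was -0.14, with an exact two-sided permutation p of 0.333 over the 4 arrays. That is the smallest p that 2 against 2 can give, however narrow the separation, so the test cannot show a difference. Here the groups were barely separate, at -5.095 in sham replicate 2 and -5.101 in obstructed replicate 2.

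Sln encodes sarcolipin, the other small inhibitor of SERCA. Its probe 2370239 (chromosome 9, 53850251 to 53853849) read 5.17 and 5.41 in sham and 5.30 and 5.37 in obstructed arrays. All 4 values lay below 5.80, the median over all probes of each array (called the array median from here on), so they cannot be told apart from background here. Obstructed minus sham came to 0.045 on the log2 scale (SE 0.13, 95% interval -0.28 to 0.37).

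**Figure D1:**
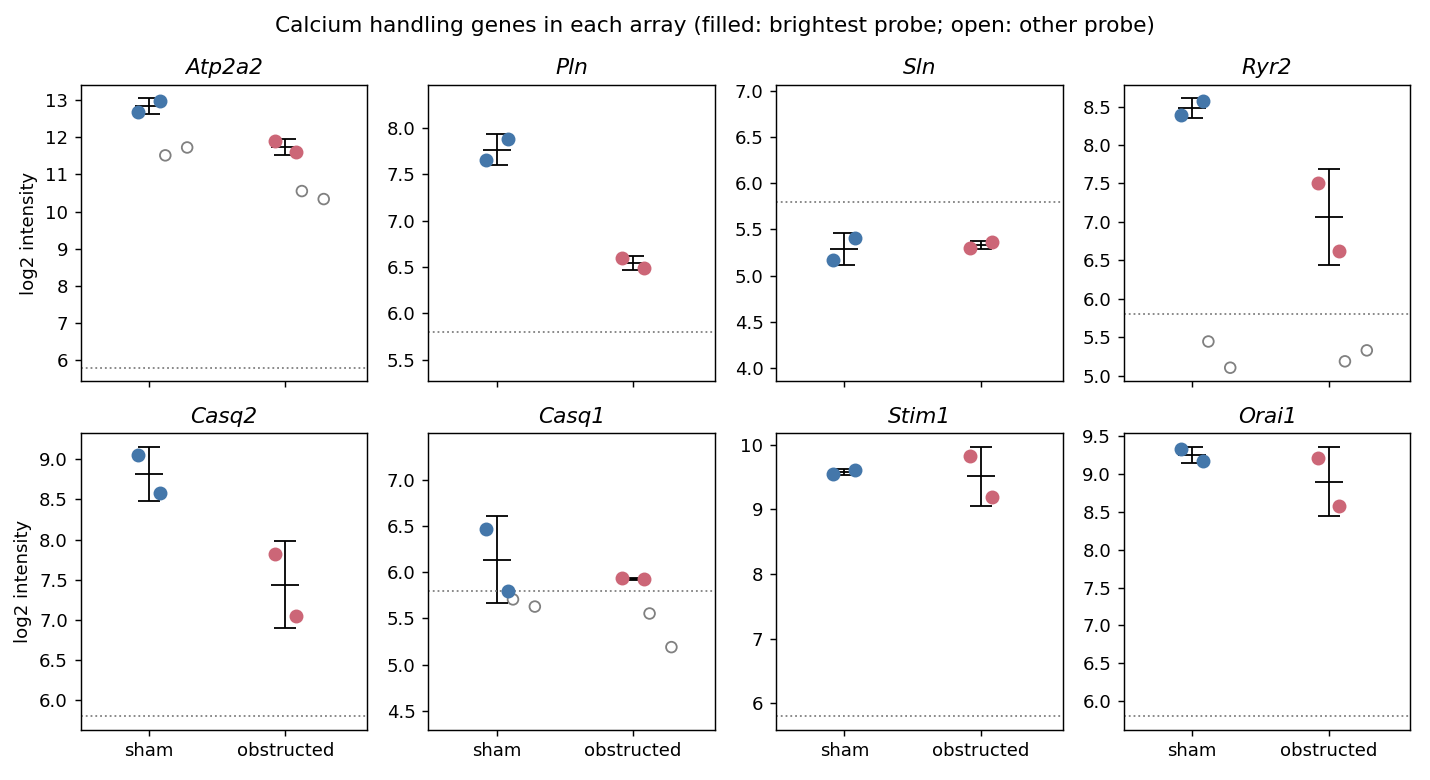
Log2 intensity of the 8 measured genes in each array, with sham in blue and obstructed in red, 2 arrays per group, and mean ± SD in black. Filled points are the brightest probe, open points the other probe where there is one, and the dotted line is the array median, 5.80. The vertical axes have different ranges and start above 0. Atp2a2, Pln, Ryr2 and Casq2 show both obstructed arrays below both sham arrays.

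Ryr2 encodes the ryanodine receptor best known from heart, a calcium release channel that smooth muscle also uses. Probe 102650458 (chromosome 13, 11553099 to 12106945) read 8.39 and 8.57 in sham and 7.50 and 6.62 in obstructed arrays. Both obstructed arrays were lower, and replicate 2 was the lower of them. The means were 8.48 ± 0.12 and 7.06 ± 0.62 (log2 intensity, SD, n = 2). Ryr2 thus differed by -1.42 on the log2 scale (SE 0.31, 95% interval -2.18 to -0.66), 2.68-fold lower (1.58- to 4.52-fold), with a limma adjusted p of 0.321. The dimmer probe of Ryr2, 2760671, read between 5.10 and 5.44 in the 4 arrays, below the array median, and differed by -0.016. The mean of both probes differed by -0.72.

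Casq2 encodes calsequestrin 2, the calcium-binding protein of the store in heart and smooth muscle. Probe 3170136 (chromosome 3, 102086415 to 102146514) read 9.06 and 8.58 in sham and 7.82 and 7.05 in obstructed arrays, with the nearest arrays of the groups 0.76 apart. The means were 8.82 ± 0.33 and 7.44 ± 0.54 (log2 intensity, SD, n = 2). The log2 difference was -1.38 (SE 0.32, 95% interval -2.16 to -0.61), 2.61-fold lower (1.52- to 4.46-fold), with a limma adjusted p of 0.334. Within arrays, Casq2 relative to Ryr2 stood at 0.66 and 0.014 in sham and at 0.32 and 0.43 in obstructed arrays, and the groups overlapped.

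Casq1, the calsequestrin of fast skeletal muscle, was dim. Probe 7000707 (chromosome 1, 172209894 to 172219895) read 6.47 and 5.80 in sham and 5.94 and 5.92 in obstructed arrays, so that both obstructed values lay between the sham values. Obstructed minus sham came to -0.21 on the log2 scale (SE 0.23, 95% interval -0.77 to 0.35). Without sham replicate 1 the difference was 0.13. The other probe of Casq1, 6290035, lay between 5.19 and 5.71, below the array median, and differed by -0.30.

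Stim1 encodes the sensor of the reticulum's calcium content. Probe 6380138 (chromosome 7, 102261514 to 102437319) read 9.54 and 9.61 in sham and 9.83 and 9.19 in obstructed arrays, which lay on either side of sham. The log2 difference was -0.066 (SE 0.27, 95% interval -0.73 to 0.60), and without obstructed replicate 2 it was 0.26. Orai1 encodes the pore that STIM1 opens. Probe 670288 (chromosome 5, 123015074 to 123030452) read 9.33 and 9.18 in sham and 9.22 and 8.58 in obstructed arrays. Obstructed replicate 1 lay between the sham arrays and replicate 2 below both. Orai1 thus differed by -0.35 on the log2 scale (SE 0.27, 95% interval -1.02 to 0.31), which leaves room for a decrease as large as 2.03-fold or a small increase. Both genes were bright, so a low signal did not limit them.

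**Figure D2:**
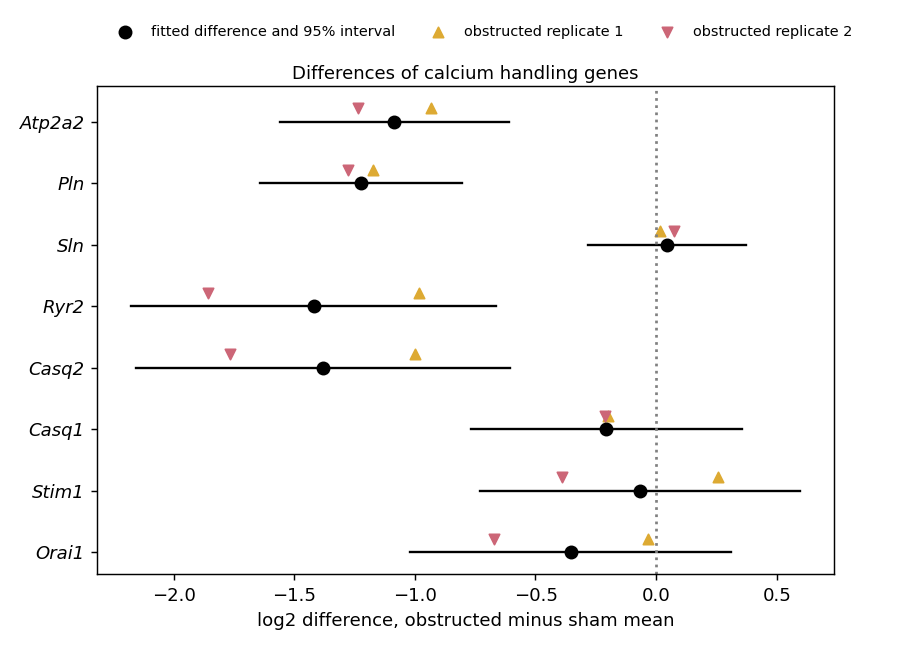
Log2 difference, obstructed minus sham, for the 8 genes. Black points and bars are the limma estimate and its 95% interval over 4 arrays, and triangles give each obstructed array against the mean of the sham arrays. The intervals of Atp2a2, Pln, Ryr2 and Casq2 lie below 0 and those of the other 4 genes span 0.

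The 4 lower genes lay in the tail of the whole table. The 5th percentile of the log2 difference over all genes was -0.50, and the SD was 0.38. Ordered from the most negative difference, Ryr2 was at place 68, Casq2 at 74, Pln at 105 and Atp2a2 at 142 of 15366. Orai1 was at place 1446 and Casq1 at 3135, while Stim1 and Sln lay near the middle, at 6246 and 9469. Differences among the 4 lower genes, from -1.09 to -1.42, were within their intervals.

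**Figure D3:**
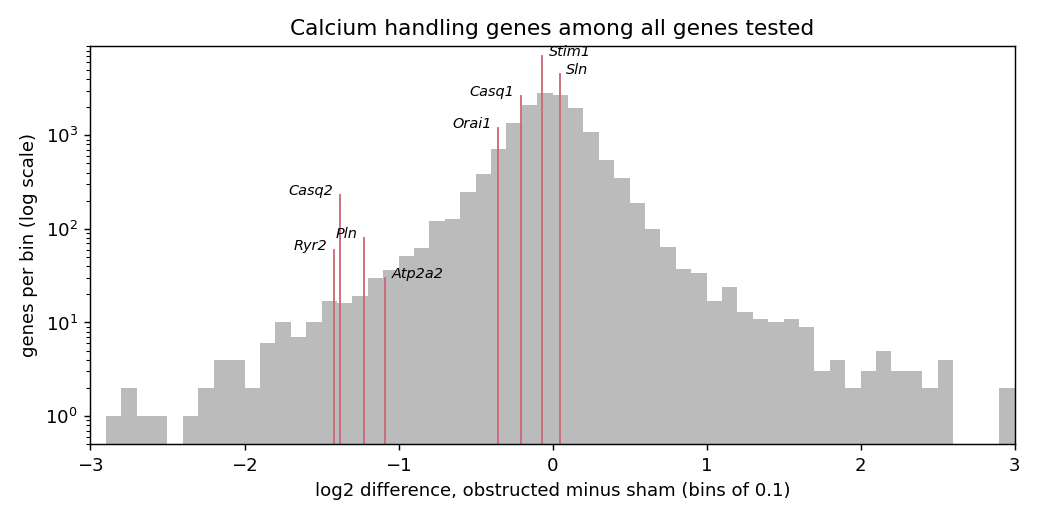
Number of genes per bin of 0.1 of the log2 difference, obstructed minus sham, on a log scale, for differences from -3 to 3 (22 of 15366 genes lie beyond). Red lines mark the 8 genes and their heights carry no meaning. Ryr2, Casq2, Pln and Atp2a2 lie between -1.42 and -1.09, below the 5th percentile of -0.50.

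The 2 obstructed arrays did not behave alike over the series, and the results depend on which is read. Urothelial and smooth muscle markers were present as labelled, with 11 of 11 smooth muscle markers above the array median in every array and 7 of 9 urothelial ones. Secretory genes of the male accessory glands, 11 of 11 with a higher mean, had a median log2 level of 5.51 and 5.44 in sham, 8.89 in obstructed replicate 1 and 14.81 in obstructed replicate 2. Sham replicate 1 carried some of this signal as well, with Sbp at 11.91 against 5.89 in sham replicate 2 and Spink1 at 11.93 against 6.86. Over all probes the correlation was 0.989 between the sham arrays and 0.969 between the obstructed ones. In a whole organ, fewer cells of a type and less RNA per cell cannot be told apart.

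Atp2a2 and Pln were nearly as low in obstructed replicate 1 as in replicate 2. Against the sham mean, Atp2a2 stood at -0.93 and -1.24 and Pln at -1.17 and -1.28 in replicates 1 and 2. Ryr2 stood at -0.98 and -1.86, and Casq2 at -0.998 and -1.77, each further down in replicate 2. Orai1 stood at -0.033 and -0.67, and Stim1 at 0.26 and -0.39. The 11 smooth muscle markers had a median of -0.048 in replicate 1, ranging from -0.57 to 0.97, and of -0.93 in replicate 2, ranging from -1.69 to -0.11. In replicate 1, 0 of the 11 smooth muscle markers lay as low as any of Atp2a2, Pln, Ryr2 or Casq2. In replicate 2, 4 markers lay below Atp2a2 and Pln, and 0 lay below Ryr2 and Casq2. These 4 genes were singled out for low values in these same arrays, so the contrast is partly built in. The other measured genes lay among the markers in replicate 1, where 7 markers were below Sln, 4 below Casq1, 8 below Stim1 and 6 below Orai1. In replicate 2 these counts were 11, 9, 7 and 6. Over both arrays, 8 of the 11 markers had a lower mean and 3 a higher one, with a median log2 difference of -0.41. Groups did not overlap, with obstructed lower, for 6 of them (21.6% of all genes). At an unadjusted p below 0.05 by limma, 4 were lower (5.09% of all genes), namely Myh11 (-1.05), Acta2 (-1.01), Cnn1 (-0.99) and Mylk (-0.97). Both obstructed arrays carried accessory gland signal, and its part in the calcium handling values was not tested.

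With obstructed replicate 1 as the lone obstructed array, limma gave an adjusted p of 0.00530 for Pln, 0.0140 for Atp2a2, 0.0291 for Ryr2 and 0.0519 for Casq2, so that 3 of the 8 genes fell, where 1.10% of all genes did. With obstructed replicate 2 alone, all 4 fell, with adjusted p from 4.13e-05 for Ryr2 to 7.72e-04 for Pln, where 5.08% of all genes did. At an unadjusted p below 0.05, lower values were found for 4 of the 8 genes with replicate 1 alone (6.83% of all genes) and for 5 with replicate 2 alone (11.8%), the fifth being Orai1. In these fits the spread comes from the sham pair and the lone array is assumed to vary likewise. With either sham array left out, 0 of the 8 genes and 0 of all genes (0.00%) passed in limma. At an unadjusted p below 0.05, the 4 genes were lower without sham replicate 1 (2.43% of all genes) and, with Casq1 as the fifth, without sham replicate 2 (2.53%).

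**Figure D4:**
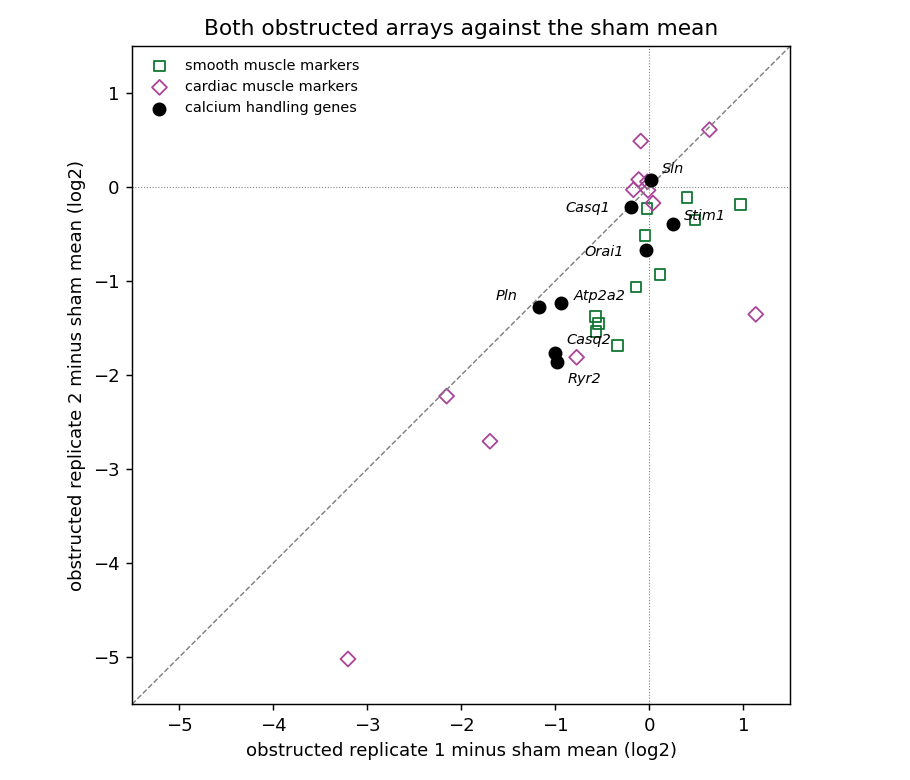
Each gene's value in obstructed replicate 2 (vertical) against that in replicate 1 (horizontal), both minus the mean of the 2 sham arrays, on the log2 scale. Black points are the 8 calcium handling genes, green squares 11 smooth muscle markers and purple diamonds 12 cardiac muscle markers. The dashed line marks equal values. Pln and Atp2a2 lie nearer that line than Ryr2 and Casq2, all of them below it. The smooth muscle markers also lie below it, with medians of -0.048 and -0.93.

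Since Atp2a2, Pln, Casq2 and Ryr2 are also cardiac genes, markers of striated muscle were read beside them. Of 12 cardiac markers 9 had a lower mean, with a median log2 difference of -0.082. At an unadjusted p below 0.05 by limma, 4 were lower (5.09% of all genes). The actin Actc1 differed by -4.11, the troponin Tnnt2 by -2.20, the Z-disc gene Tcap by -2.19 and the atrial light chain Myl7 by -1.29. Tcap was the 1 of them called over all genes (limma adjusted p = 0.0349). Against the sham mean, obstructed replicates 1 and 2 stood at -3.20 and -5.02 for Actc1 and at -1.69 and -2.70 for Tnnt2. Tcap stood at -2.16 and -2.22, and Myl7 at -0.77 and -1.81. Medians of the 12 cardiac markers were -0.10 in each array, with the highest marker at 1.13 and 0.61. In the other direction, 1 cardiac marker was higher at that unadjusted threshold, the troponin Tnnc1, which read 5.98 and 5.87 in sham and 6.57 and 6.54 in obstructed arrays, a log2 difference of 0.62. Defining genes of the working heart muscle, Myh6 and Myl2, lay below the array median in every array. Of 11 skeletal muscle markers, 11 had a lower mean, with a median of -0.20. At the same unadjusted threshold 3 were lower (5.09% of all genes). These were Tnnt3 (-2.36), Acta1 (-1.30) and Ckm (-1.43), while the oxygen carrier Mb lay below the array median throughout. In replicates 1 and 2, Ckm stood at -0.87 and -1.98 against the sham mean and Acta1 at -0.90 and -1.70. Tnnt3 stood at -2.02 and -2.70. Medians of the 11 skeletal markers were -0.22 and -0.37, with the highest marker at 0.24 and 0.31. The part of these genes' cells in the calcium handling values was not tested.

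Some markers of fat and nerve sheath were also lower in both obstructed arrays. Of 6 adipocyte markers, 5 had a lower mean and 4 were lower at an unadjusted p below 0.05 by limma (5.09% of all genes). Against the sham mean, the median of the 6 stood at -0.65 in the first obstructed array and at -0.83 in the other. The adipokine Adipoq read 10.56 and 9.44 in sham and 5.84 and 6.17 in obstructed arrays, a log2 difference of -4.00 (limma adjusted p = 0.0662). The lipid droplet gene Cidec differed by -2.09 and the leptin gene Lep by -1.11. Lep read 5.63 and 5.41 in obstructed arrays, both below the array median. The adipocyte genes Plin1 and Retn lay below that median in every array. Among 3 Schwann cell markers, Mbp, which encodes a myelin protein, was lower at that threshold, with a difference of -2.22. Mbp values of replicates 1 and 2 after obstruction lay at -1.49 and -2.96 relative to sham. Median differences came to -0.23 over 8 fibroblast, -0.096 over 7 endothelial and -0.24 over 6 macrophage markers. These averages join opposite signs in obstructed replicates 1 and 2. Against the sham mean, the fibroblast medians were 0.038 and -0.43 and the endothelial ones 0.23 and -0.33. Macrophage medians were 0.42 and -0.75, and those of 9 urothelial markers 0.0024 and 0.068. The part of these cells in the calcium handling values was not tested.

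Paralogs of the listed genes were read beside them, and no difference between paralogs was tested. Atp2a3, a SERCA of endothelium and epithelia among other tissues, read 10.12 and 10.13 in sham and 9.60 and 8.93 in obstructed arrays, a log2 difference of -0.86 (SE 0.28). Atp2a1, the SERCA of fast skeletal muscle, differed by -0.17. Ryr1, the skeletal ryanodine receptor, lay at 0.39 and -0.50 in the obstructed arrays against sham, a difference of -0.055. Among the inositol trisphosphate receptors, Itpr3 read 7.59 and 7.58 in sham and 7.96 and 8.02 in obstructed arrays. Both obstructed arrays of Itpr3 were higher, with a difference of 0.40 (SE 0.18) and a limma adjusted p of 0.641. Itpr2 lay below the array median in every array. Stim2, Orai2 and Orai3 differed by 0.061, 0.029 and -0.10, and the groups overlapped in each.

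Other genes of calcium handling were read from lists that hold 89 symbols, a few of them alternative names of 1 gene. Under these symbols 67 genes were measured. By limma 0 of these passed over all genes, while 9 were lower and 2 higher at an unadjusted p below 0.05, which is 13.4% of the 67 for the lower ones. Their median difference was -0.10, and 43 had a lower mean. Over all genes, 53.1% had a lower mean, and at that unadjusted threshold 5.09% were lower and 3.05% higher. These are the shares to read beside each such count here and in the lists below. Among 9 further pumps and exchangers, 2 were lower at that threshold, Atp2a3 and the sodium-calcium exchanger Slc8a1 at -0.72 (SE 0.29), which read 9.42 and 9.79 in sham and 9.20 and 8.58 in obstructed arrays. Atp2b2, a plasma membrane pump, lay below the array median throughout.

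Regulators of the pump included the largest difference of the pathway. Ppp1r1a encodes an inhibitor of protein phosphatase 1, the enzyme that removes phosphate from phospholamban in heart. It read 10.33 and 9.98 in sham and 7.81 and 6.96 in obstructed arrays, a log2 difference of -2.77 (SE 0.33, limma adjusted p = 0.0958). Both obstructed arrays of Ppp1r1a lay far below both sham arrays. The calcium-dependent kinase genes Camk2g and Camk2b differed by -0.98 and -0.56. Camk2b lay under the array median in obstructed replicate 2, at 5.72. Of the 11 regulators measured, 9 had a lower mean and 3 were lower at an unadjusted p below 0.05.

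Of 21 release channels and their partners, 16 had a lower mean and 2 were lower at an unadjusted p below 0.05 by limma. These were Tmem38a, a cation channel of the reticulum that balances charge during release, at -0.81 (SE 0.30), and the calmodulin gene Calm2 at -0.50 (SE 0.16). Among 13 further calcium buffers of the lumen, 9 had a higher mean and the list median was 0.27. The chaperone Hsp90b1 differed by 0.59 (SE 0.21) and Rcn1, a dim probe, by 0.33. Srl, whose product sarcalumenin binds calcium in the reticulum of striated muscle, read 6.83 in both sham arrays and 6.13 and 5.75 in obstructed arrays. The Srl value of obstructed replicate 2 lay under the array median. The difference of Srl was -0.89 (SE 0.17, limma adjusted p = 0.251), opposite in sign to Hsp90b1.

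Of 8 further genes of store-operated and receptor-operated entry, 1 was lower at an unadjusted p below 0.05, the cation channel Trpc4. It read 7.02 and 6.69 in sham and 5.25 and 5.56 in obstructed arrays, a log2 difference of -1.45 (SE 0.18, limma adjusted p = 0.104). Both obstructed values of Trpc4 lay under the array median, so the difference may understate the change. The regulator Stimate and the channel Trpc6 differed by 0.13 and 0.20. Of 5 genes of mitochondrial calcium uptake, 4 had a lower mean and 0 passed an unadjusted p of 0.05 by limma, the channels Vdac1, Vdac2 and Vdac3 of the outer membrane lying at -0.19, -0.34 and -0.26.

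**Figure D5:**
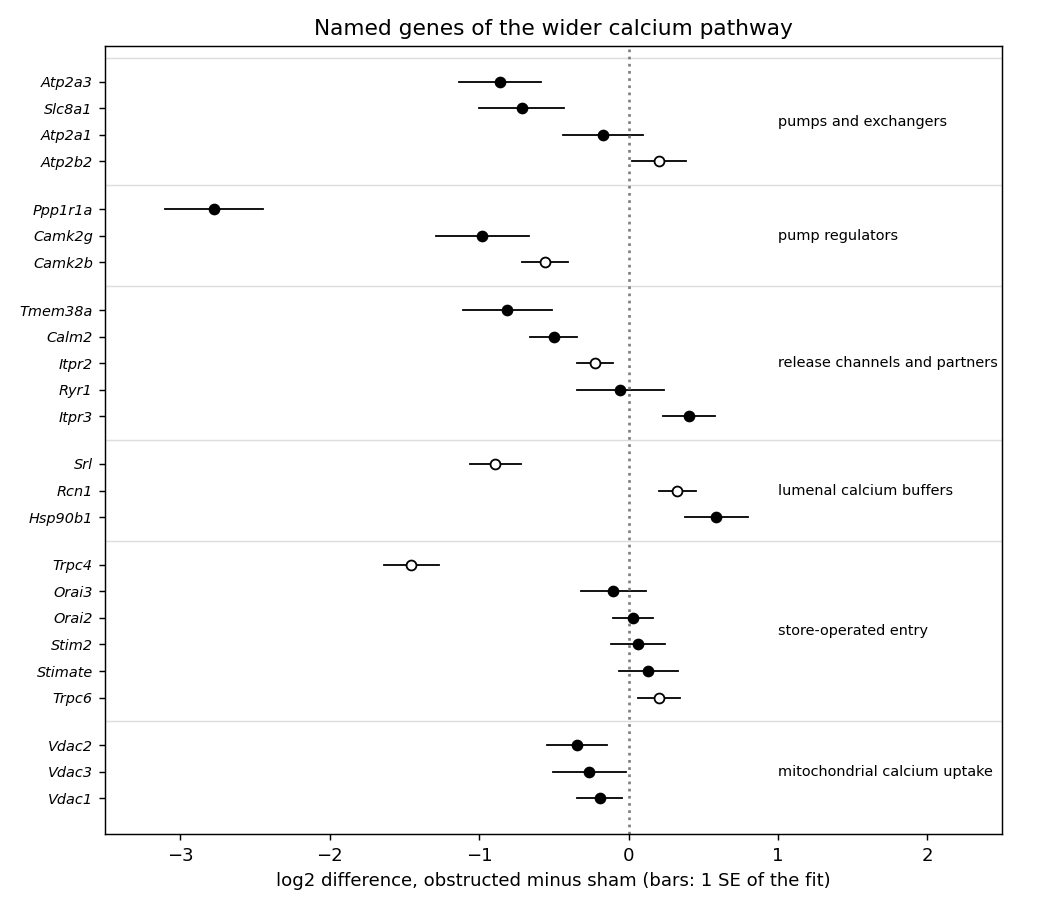
Log2 difference, obstructed minus sham, of the named genes of the wider calcium pathway, grouped by list, with bars of 1 standard error of the limma fit over 4 arrays. Open circles are genes at or below the array median in at least 1 array. Ppp1r1a (-2.77) and Trpc4 (-1.45) are the lowest, and Hsp90b1 (0.59) the highest.

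For each of the 4 lower genes, the genes with the most similar values over the 4 arrays were found among 10579 genes with a mean above the array median. Likeness was the Euclidean distance between values taken relative to the sham mean, in log2 units. Nearest to Atp2a2 were Clmp, an adhesion molecule (0.093), the actin-severing gelsolin gene Gsn (0.13) and Stc2 (0.16). Nearest to Pln were the RNA-binding Raver2 (0.10), Pdk4, a kinase that restrains pyruvate oxidation (0.14), and Opcml (0.14). The nearest genes lay further off for Ryr2, with Ifi47, Timd4 and Plin4 between 0.16 and 0.20, and for Casq2, with Gbp2, Nt5c3b and Psd between 0.22 and 0.24. None of these 12 genes belonged to the calcium lists, and 4 arrays do not fix an order among close neighbours.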

How the data were processed

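The values deposited by the authors were taken as log2 intensities, judged from their range of 4.14 to 15.63, with sorted values equal to within 0.0252 between arrays, as quantile normalization leaves. Background correction, scanner software and filters were not given in the sources used here. No detection p-values were at hand, and 0 columns of values were left out. Per the platform annotation, 22380 of 46657 probes had 1 gene symbol, 0 several and 24277 none. RefSeq tables (GRCm38.p6) held all 22380 gene numbers and gave positions and promoters.

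The obstructed group was set against sham in limma 3.58.1 (R 4.3.3) with lmFit and eBayes, trend on, two-sided, with Benjamini-Hochberg adjustment over 15366 genes, no filter and no covariate. Moderation left 6.04 degrees of freedom. The number of arrays limits the precision. Tested on simulated data of the same 15366 genes, this comparison called 19.2% of genes changed 2-fold and 89.2% of genes changed 4-fold. On average it also called 4.6 unchanged genes. The simulation gave both groups the same independent spread. In the data the obstructed arrays correlated at 0.969 and the sham arrays at 0.989, so these rates may not hold for the real arrays. All 8 measured genes were named, and of each other pathway list the 3 with the smallest p, plus paralogs. Markers of other cell types named beside them were chosen after their values were seen. Genes and lists were chosen with earlier results of these data known. Alternatives were renormalization, centring, a floor of 50, a brightness filter, other probe choices and variance models, a replicate block, an adjusted p of 0.1 and each array left out. Python 3.11.15 and matplotlib 3.10.9 made permutation tests and figures.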

Additional observations from a re-analysis of the deposited data

How the results depend on the processing

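The count of calcium handling genes called by limma was 0 under every alternative that kept all 4 arrays (4 were lower at an unadjusted p below 0.05 in each except the unmoderated fit, with 2, Atp2a2 and Pln), and ran from 0 to 4 with 1 array left out. The count lower at an unadjusted p below 0.05 ran from 4 to 5 with 1 array left out. Their median difference was -1.09 with dim genes removed, which leaves out Sln and moves the median to another gene. It was -0.54 with the mean of all probes of each gene, and ran from -0.96 to -0.57 with 1 array left out. With 1 array left out, 3 genes changed sign: Casq1 ran from -0.54 to 0.13 (positive without sham replicate 1), Sln from -0.0741 to 0.16 (negative without sham replicate 1) and Stim1 from -0.39 to 0.26 (positive without obstructed replicate 2). Atp2a2, Pln, Ryr2, Casq2 and Orai1 stayed below sham in all 14 alternatives. Of all genes, 8 were called, against 0 with the floor and in the unmoderated fit, 3 with dim genes removed, 17 with a robust trend, 23 at an adjusted p of 0.1, 1 with the replicate block, and 0 to 1299 with 1 array left out. The causes were not tested. The labels' descriptions number the arrays 1 and 2 in each group without saying that a number is shared, and deviations of same-numbered arrays correlated at 0.056 over probes. The replicate block left 0 of the 8 genes called. Dim signals limit Sln and Casq1.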
